A study of Mus musculus with 2 samples.

Results

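The histone deacetylase genes Hdac1 to Hdac10 were followed in single cells of the mediastinal lymph nodes (MedLNs) of mice with asthma induced by ovalbumin (OVA), with and without butyrate supplementation. The 10 genes were taken by symbol from the feature list that both libraries share, and they are 10 of its 31053 genes. All 10 had UMIs (unique molecular identifiers, each standing for 1 captured transcript) in both libraries. MedLN cells of C57/B6J mice of WT genotype, whose age the study gives only as a range for all of its mice, were profiled by droplet 3′ sequencing. All mice were sensitised with OVA in alum and challenged with intranasal OVA. There was 1 library from mice w/o butyrate and 1 from mice w/ butyrate, and each pooled 4 mice, so neither shows how single mice vary. How the butyrate was given to the mice of these libraries is not given in the sources used here. There was no library of unchallenged mice.

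Histone deacetylases (HDACs) remove acetyl groups from lysines of histones and other proteins, and in chromatin they mostly act as the catalytic part of corepressor complexes. Class I holds Hdac1, Hdac2, Hdac3 and Hdac8, of which Hdac1 and Hdac2 sit in the NuRD, Sin3 and CoREST complexes and Hdac3 in the NCoR/SMRT complex. Class IIa holds Hdac4, Hdac5, Hdac7 and Hdac9, which bind MEF2 transcription factors and leave the nucleus when kinases phosphorylate them and 14-3-3 proteins bind. Class IIb holds Hdac6, a tubulin deacetylase of the cytoplasm, and Hdac10, a polyamine deacetylase. Butyrate is a known inhibitor of class I and class IIa enzymes, and Hdac6 and Hdac10 are known as little sensitive to it, so the set is wider than the enzymes butyrate blocks. Inhibition acts on the enzyme, and a transcript level measures neither the enzyme's amount nor its activity.

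Promoter windows are shown for Hdac9, the member that differed most between B and T cells, and for Hdac7, the member that was higher with butyrate in CD8+ T cells, with Hdac2 for comparison. RefSeq windows were matched for 7 of the 10 genes (Hdac2 and Hdac4 to Hdac9), with 11 windows in all. Each runs for the 250 bases before an annotated start, is given 5′ to 3′ on the strand of the gene in build GRCm38.p6, and has its CG dinucleotides in capitals. Hdac9 lies on the minus strand at chr12:34047580-34917095, and the window before its outermost start holds no CG.
Hdac9, outer start, minus strand, chr12:34917096-34917345: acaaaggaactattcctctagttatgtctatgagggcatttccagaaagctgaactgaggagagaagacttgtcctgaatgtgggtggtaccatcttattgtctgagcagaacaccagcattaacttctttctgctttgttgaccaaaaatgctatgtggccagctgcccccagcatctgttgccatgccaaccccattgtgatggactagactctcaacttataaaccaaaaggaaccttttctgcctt
Hdac9, inner start, minus strand, chr12:34528890-34529139: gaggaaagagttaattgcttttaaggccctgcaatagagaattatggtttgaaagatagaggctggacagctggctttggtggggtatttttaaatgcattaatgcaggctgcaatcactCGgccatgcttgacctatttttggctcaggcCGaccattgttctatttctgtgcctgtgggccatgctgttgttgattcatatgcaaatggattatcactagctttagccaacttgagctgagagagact
Hdac7, 1 of its 4 windows, minus strand, chr15:97831768-97832017: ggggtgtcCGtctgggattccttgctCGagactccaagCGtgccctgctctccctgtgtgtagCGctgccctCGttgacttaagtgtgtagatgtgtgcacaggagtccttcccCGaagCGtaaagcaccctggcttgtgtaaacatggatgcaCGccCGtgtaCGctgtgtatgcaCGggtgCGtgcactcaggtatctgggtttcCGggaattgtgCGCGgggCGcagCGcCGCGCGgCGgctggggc
Hdac2, plus strand, chr10:36974294-36974543: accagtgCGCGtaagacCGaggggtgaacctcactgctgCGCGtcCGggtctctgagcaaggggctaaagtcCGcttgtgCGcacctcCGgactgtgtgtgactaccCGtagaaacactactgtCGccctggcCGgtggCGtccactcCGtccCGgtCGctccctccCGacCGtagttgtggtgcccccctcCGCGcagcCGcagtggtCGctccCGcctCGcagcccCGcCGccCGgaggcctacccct
The 2 Hdac9 windows held 0 and 2 CG dinucleotides, against 21 in the printed Hdac7 window and 27 in the Hdac2 window. The Hdac2 window held the most of the 11, and those of Hdac4, Hdac5 and Hdac6 held 23, 12 and 17. The 4 windows of Hdac7 held 6, 21, 25 and 5 from its outermost start inwards, so Hdac7 too has CG-poor windows. Over all 32851 windows of 27025 genes the median was 6 CG dinucleotides and 52.4% G or C. As few CG dinucleotides as in the outer Hdac9 window were in 7.87% of windows, and as few as in the inner one in 29.0%. The G and C content was 44.4% and 43.6% in the outer and inner Hdac9 windows, 62% in the Hdac7 window and 68.8% in the Hdac2 window. The sequence GGGCGG, the core of sites for Sp1-type factors, was searched on both strands and was in 32.7% of all windows. It was in the windows of Hdac2, Hdac4, Hdac5 and Hdac6 and in 1 of 4 windows of Hdac7. It was in neither window of Hdac9 and not in that of Hdac8. The Hdac8 window, not printed here, held 6 CG dinucleotides and 48.4% G or C.

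Class IIa HDACs are known for their binding to MEF2, so the MEF2-type sequence CTATTTTTA was searched on both strands of every window. It was in 0.454% of all windows, and the window of Hdac5 was the 1 member window that held it, marked in capitals here.
Hdac5, minus strand, chr11:102230173-102230422: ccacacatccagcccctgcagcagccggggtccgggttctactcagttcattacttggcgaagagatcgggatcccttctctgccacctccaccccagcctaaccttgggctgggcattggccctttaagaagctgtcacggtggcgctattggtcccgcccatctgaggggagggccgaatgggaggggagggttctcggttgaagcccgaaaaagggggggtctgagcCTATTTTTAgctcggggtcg
A match or its absence describes these letters only. Because the reads came from the 3′ end of transcripts, they cannot tell which annotated start of Hdac7 or Hdac9 was used.

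The deposited matrices held 9681 cells w/o butyrate and 8932 w/ butyrate, with median depths of 5140 and 5651 UMIs per cell, and 25 cell barcodes occurred in both. After filters on mitochondrial reads, genes and doublets, 8760 and 7990 cells were left, of which 7722 and 7107 were placed in 6 lineages by UMIs of Cd79a, Cd3e, Cd4, Cd8a, Foxp3 and Lyz2. The B-lineage held 4199 and 3922 cells, CD4+ T cells 877 and 774, Foxp3+ T cells 159 and 142, CD8+ T cells 1453 and 1462, and T cells in none of these 3 groups 1005 and 784. These last are called other T cells, and the 4 T lineages together held 3494 and 3162 cells. Myeloid cells were too few to compare, at 29 and 23. The labels held against wider markers: 7 B-lineage genes summed to 7052 and 7313 UMIs per 1000000 UMIs (CPM) in the B-lineage against 299 and 280 CPM in all T cells, with none of the 7 genes at 0 in the T cells. In turn 5 T cell genes summed to 2723 and 2620 CPM in all T cells against 60.3 and 50.9 CPM in the B-lineage.

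Each condition was 1 library, so no difference between conditions was tested and none can be set against the spread between mice. Levels are UMIs summed over the cells of a lineage, scaled to CPM by all UMIs of those cells. Intervals are exact 95% intervals that cover counting error only. Because 3′ tagging yields 1 UMI per captured transcript whatever its length, CPM were compared between genes without dividing by length. Shares of cells with a UMI were taken after every cell had been thinned to 2000 UMIs, since depth differed between lineages and libraries.

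The class I genes supplied the largest part of the HDAC transcripts in the B-lineage and in all T cells together. They gave 57.5% and 57.9% of the members' UMIs in the B-lineage w/o and w/ butyrate and 52.6% and 50.6% in all T cells. Class IIa made up 35.8% and 35.8% in the B-lineage and 44.7% and 47.2% in all T cells. Class IIb made up 6.74% and 6.27% in the B-lineage and 2.66% and 2.21% in all T cells. CD8+ T cells by themselves differed, with 48.8% and 47.0% from class I and 48.4% and 51.4% from class IIa. The sum of all 10 members was of like size in both cell types, at 228 and 251 CPM in the B-lineage and 250 and 263 CPM in all T cells. At 2000 UMIs per cell the members were sparse. No UMI of any member was found in 63.9% of B-lineage cells w/o butyrate and 59.9% w/ butyrate, and in 61.8% and 59.6% of all T cells.

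**Figure D1:**
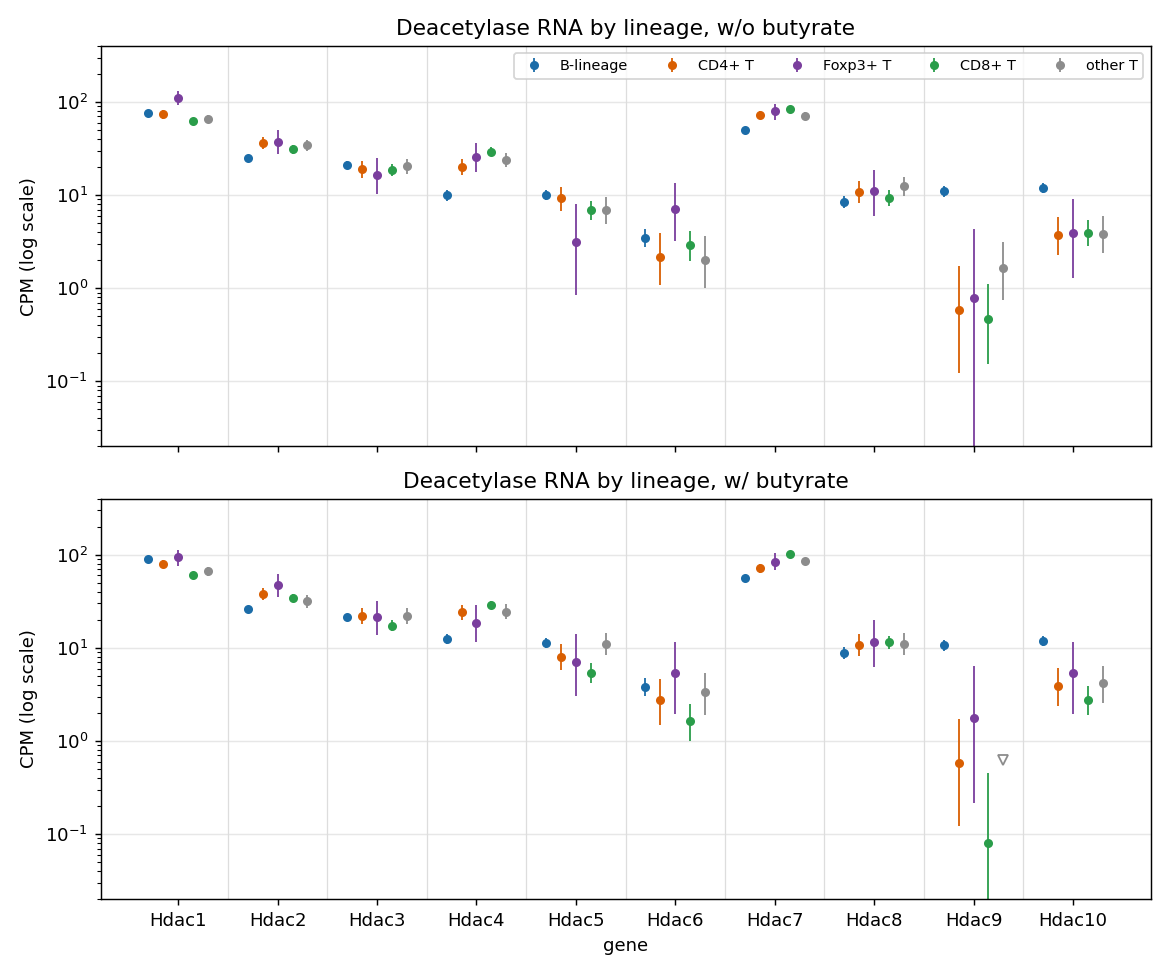
Level of each member in CPM (log axis) by lineage, in the library w/o butyrate (top) and w/ butyrate (bottom), with exact 95% counting intervals. Hdac1 and Hdac7 lie highest in every lineage shown, and Hdac9 lies near 11 CPM in the B-lineage and under 2 CPM in each T lineage. The open triangle stands for 0 UMIs of Hdac9 in other T cells w/ butyrate and is set at 0.627 CPM, the level of 3 UMIs.

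Hdac1 and Hdac7 were the most abundant members in the B-lineage and in each of the 4 T lineages of both libraries. Hdac1, the main class I enzyme of the NuRD and Sin3 complexes, was the highest in the B-lineage, at 76.8 CPM [73.3, 80.5] w/o butyrate and 89.4 CPM [85.5, 93.5] w/ butyrate. Hdac7, a class IIa enzyme best known in lymphocytes from thymocyte and B cell development, followed there at 50.6 and 55.7 CPM. In CD8+ T cells the order of the pair was the other way round, with Hdac7 at 84.0 CPM [78.6, 89.7] and 101 CPM [95.2, 106] and Hdac1 at 62.3 and 60.4 CPM. In CD4+ T cells their intervals overlapped, with Hdac1 at 73.5 and 79.1 CPM and Hdac7 at 72.1 and 71.3 CPM.

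The other class I genes lay lower. Hdac2, the partner of Hdac1, was at 24.8 CPM [22.8, 26.9] and 26.1 CPM [24.0, 28.3] in the B-lineage and at 33.5 and 35.3 CPM in all T cells. Hdac3, the catalytic subunit of the NCoR/SMRT complex, was at 21.2 CPM [19.3, 23.1] and 21.3 CPM [19.4, 23.4] in the B-lineage and at 19.0 and 19.5 CPM in all T cells. The intervals of Hdac2 and Hdac3 in the B-lineage overlapped w/o butyrate and did not w/ butyrate. Hdac8, a class I enzyme that works outside the large corepressor complexes and deacetylates cohesin, was at 8.41 and 8.80 CPM in the B-lineage and at 10.5 and 11.3 CPM in all T cells.

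Below them in the B-lineage w/o butyrate came Hdac10 at 11.9 CPM, Hdac9 at 11.0, Hdac5 at 10.0, Hdac4 at 9.95 and Hdac8 at 8.41, neighbours whose intervals overlapped. Hdac6 was the lowest of the 10 in the B-lineage, with 79 and 83 UMIs, or 3.46 and 3.82 CPM. In all T cells Hdac9 was the lowest, and Hdac4 at 25.7 and 26.5 CPM stood between Hdac2 and Hdac3, with intervals that met those of neither.

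Hdac9 was the member that differed most between B and T cells. In the B-lineage its 250 UMIs lay in 226 of 4199 cells w/o butyrate and its 232 UMIs in 208 of 3922 cells w/ butyrate, with at most 3 UMIs in 1 cell. All T cells together held 18 UMIs in 15 cells and 6 UMIs in 5 cells. The level in the B-lineage was 13.6-fold that in all T cells w/o butyrate, a log2 ratio of 3.77 [3.08, 4.55], and 41.6-fold w/ butyrate, a log2 ratio of 5.38 [4.23, 6.84]. Thinned shares were 2.22% and 2.08% of B-lineage cells against 0.201% and 0.0636% of all T cells, and the shares at full depth were 5.38% and 5.30% against 0.429% and 0.158%. The median depths were 4405 and 4614 UMIs in the B-lineage and 5789.5 and 6792 UMIs in all T cells, so the deeper cells had the lower share.

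In all T cells Cd79b, a B cell receptor subunit that T cells do not express, stood at 1.40% and 1.35% of its B-lineage level, which gauges free RNA and undetected doublets. Hdac9 stood at 7.33% and 2.41% of its own B-lineage level. Of the 7 B-lineage markers, Ighm had the highest such share, 8.42% and 8.74%, and the other 6 lay between 0.509% and 2.1% w/o butyrate and between 0.317% and 1.79% w/ butyrate. Hdac9 in T cells thus lay below Ighm in both libraries and above the other 6. Its share lay within the range of the 7 markers, and whether its T cell level was background was not tested. By T lineage, Hdac9 had 3 and 3 UMIs in CD4+ T cells, 1 and 2 in Foxp3+ T cells, 5 and 1 in CD8+ T cells, and 9 and 0 in other T cells. For the 0 UMIs in other T cells w/ butyrate, a floor of 3 UMIs stands at 0.627 CPM, which is not the end of the exact interval. Among the 29 and 23 myeloid cells there were 2 and 8 UMIs of Hdac9. There were 1 and 5 UMIs among 13 and 22 cells with the dendritic marker Flt3 and neither Cd79a nor Cd3e. These were too few to order such cells against the B-lineage.

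**Figure D2:**
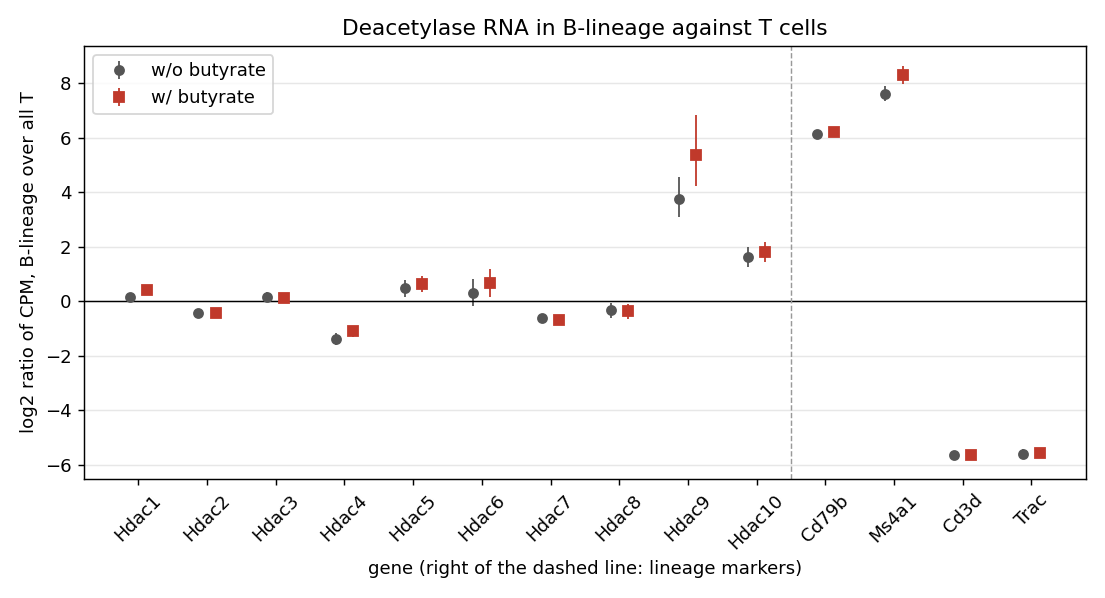
Log2 ratio of the level in the B-lineage to that in all T cells for each member, with exact 95% counting intervals, w/o and w/ butyrate, beside B cell and T cell reference genes. Among members, Hdac9 and Hdac10 lie farthest above 0 and Hdac4 and Hdac7 farthest below 0 in both libraries.

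Hdac10 had the next largest ratio towards the B-lineage. Its 272 and 259 UMIs there gave 11.9 and 11.9 CPM, against 87 and 80 UMIs, or 3.88 and 3.43 CPM, in all T cells. The ratios were 3.07-fold and 3.48-fold. Unlike Hdac9, Hdac10 in T cells stood at 32.6% and 28.7% of its B-lineage level, above the share left of each of the 7 B-lineage markers. In build GRCm38, Hdac10 lies on the minus strand at chr15:89123307-89128700.

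Hdac4 and Hdac7, both class IIa, were higher in T cells. Hdac4, known as a repressor of MEF2 targets, was at 9.95 and 12.4 CPM in the B-lineage against 25.7 and 26.5 CPM in all T cells, 2.59-fold and 2.14-fold higher in the latter. Hdac7 was 1.54-fold and 1.62-fold higher in all T cells than in the B-lineage. Hdac4 lies on the minus strand at chr1:91928779-92195699 and shares 3578 bases with Gm26720 on the other strand. Hdac7, on the minus strand at chr15:97792664-97844502, shares 29 bases with Slc48a1 on the other strand. Reads there would be told apart by strand only.

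On the log2 scale with 10 CPM added to each level, 2 of 10 members were at least 0.5 higher in the B-lineage in each library, Hdac9 and Hdac10, where 10.5% of all genes tested w/o butyrate and 11.5% w/ butyrate were. In the other direction 2 of 10 members, Hdac4 and Hdac7, were past -0.5, against 9.42% and 9.26% of all genes. The remaining 6 members stayed within those bounds, and Hdac6 was too low in both cell types to pass them. On the ratio with nothing added, Hdac1 was higher in the B-lineage by 0.17 [0.07, 0.27] and 0.41 [0.31, 0.51] and Hdac5 by 0.47 [0.18, 0.77] and 0.64 [0.35, 0.93]. Hdac2 was higher in all T cells, at -0.44 [-0.60, -0.28] and -0.44 [-0.59, -0.28], as was Hdac8, at -0.32 [-0.61, -0.04] and -0.36 [-0.63, -0.08]. Hdac3 had intervals that spanned 0 in both libraries, at 0.16 and 0.13. Hdac6, a low gene, spanned 0 w/o butyrate, and was at 0.67 [0.17, 1.19] w/ butyrate.

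The makeup of class IIa differed between the cell types. Hdac9 gave 13.4% [11.9, 15.1] and 11.9% [10.5, 13.4] of class IIa UMIs in the B-lineage and 0.719% and 0.207% in all T cells. Hdac4 gave 12.2% and 13.8% in the B-lineage and 23.1% and 21.3% in all T cells. Hdac5, which shares with Hdac4 the transport out of the nucleus on phosphorylation, gave 12.3% and 12.5% in the B-lineage and 6.47% and 5.83% in all T cells. Hdac7 was the main class IIa gene on both sides, with 62.1% and 61.8% in the B-lineage and 69.8% and 72.6% in all T cells.

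**Figure D3:**
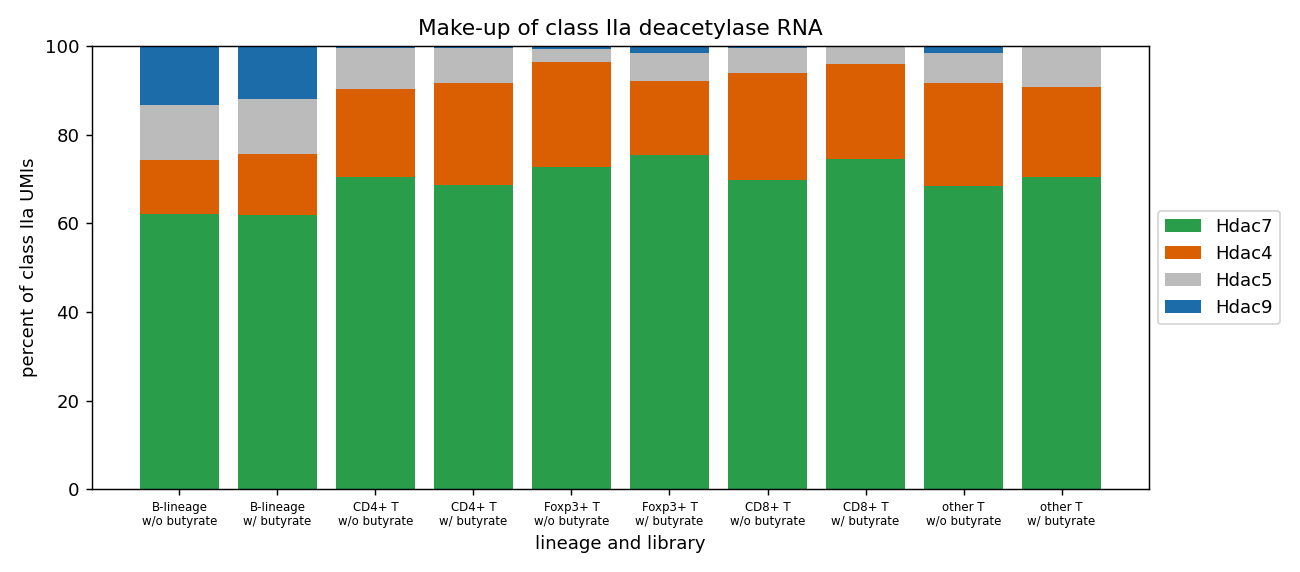
Share of class IIa UMIs (percent, stacked to 100) that came from Hdac4, Hdac5, Hdac7 and Hdac9 in each lineage, w/o and w/ butyrate. Hdac7 fills most of every bar, and Hdac9 fills 13.4% and 11.9% in the B-lineage and a thin strip at most in the T lineages.

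Some of the genes that class IIa HDACs work with differed between B and T cells too. Of 16 partners and kinases listed, 4 were at least 0.5 higher in the B-lineage and 1 was at least 0.5 higher in all T cells, in each library. Of all genes, 10.5% w/o butyrate and 11.5% w/ butyrate were that much higher in the B-lineage, and 9.42% and 9.26% in all T cells. The median log2 ratio of the 16 was 0.15 and 0.24 against 0.03 and 0.04 over all genes. Mef2c, the MEF2 factor of B cells, stood at 990 and 1083 CPM in the B-lineage against 4.68 and 2.74 CPM in all T cells. Mef2b was at 17.5 and 15.1 CPM against 1.03 and 0.643 CPM. Mef2d was nearer to equal, at 53.3 and 59.5 CPM against 44.9 and 46.2 CPM. Of the kinases, Camk4, known for its role in T cell signalling, was at 1.97 and 1.24 CPM in the B-lineage and 49.2 and 49.8 CPM in all T cells, while Camk2d was at 253 and 263 CPM against 74.3 and 72.9 CPM. Sik1, a kinase that phosphorylates class IIa HDACs, was at 57.2 and 55.1 CPM against 36.4 and 30.7 CPM. These partners were named after their values were seen.

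Within the T cells, Hdac7 was higher in CD8+ than in CD4+ cells, and high too in cells with Trdc, the constant region of the δ chain of the T cell receptor. CD8+ T cells exceeded CD4+ T cells in Hdac7 by 0.22 w/o butyrate and 0.50 w/ butyrate on the log2 scale, with both intervals above 0. The 91 and 72 T cells with Trdc and no UMI of Cd4 or Cd8a had 111 and 135 CPM of Hdac7. CD4+ T cells had 72.1 and 71.3 CPM, lower by 0.62 and 0.92 on the log2 scale. Among CD8+ T cells, those with Cxcr3, a chemokine receptor of activated and memory cells, had 103 and 115 CPM against 79.4 and 96.4 CPM in cells with Ccr7 and no Cxcr3. These finer groups were formed with the data in view.

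Hdac4 was higher in CD8+ than in CD4+ T cells by 0.52 w/o butyrate, and w/ butyrate the interval of the difference of 0.27 spanned 0. Hdac1 was lower in CD8+ than in CD4+ T cells, with log2 ratios of -0.24 and -0.39. In Foxp3+ T cells, which include regulatory T cells, Hdac1 stood at 111 CPM [93.8, 131] w/o butyrate, 0.60 [0.31, 0.88] above CD4+ T cells. W/ butyrate it stood at 93.5 CPM, 0.24 [-0.08, 0.56] above them. Cycling cells, those with at least 2 UMIs of Mki67 and Top2a together, made up 15.7% and 9.15% of Foxp3+ cells. Foxp3+ T cells held 1275436 and 1122446 UMIs with their cycling cells and 691355 and 749061 without. The summed levels thus rest heavily on these 25 and 13 cells. Without cycling cells in either group, the difference from CD4+ T cells in Hdac1 was -0.05 and 0.13, and both intervals spanned 0.

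Hdac1 was higher in cycling T cells. The 86 and 58 cycling T cells had 141 and 121 CPM of Hdac1 against 63.1 and 64.4 CPM in T cells that were not cycling, a log2 ratio of 1.16 and 0.91. At 2000 UMIs per cell Hdac1 was found in 23.3% and 22.4% of cycling T cells against 11.2% and 11.2% of the others. The gap was thus present at equal depth, although cycling T cells were deeper, with medians of 14544 and 18696.5 UMIs. In the 107 and 51 cycling B-lineage cells the gap was smaller, at 87.0 and 114 CPM against 75.8 and 88.4 CPM. W/o butyrate the interval of that ratio covered equal levels. Of these cycling B-lineage cells, 21 and 6 also met the rule for plasma cells given below, a group with 27.9 and 41.4 CPM of Hdac1. The level of cycling B-lineage cells without them is not given here.

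Hdac3 was higher in cycling cells of both kinds. It stood at 37.3 and 40.4 CPM in cycling B-lineage cells against 19.5 and 20.6 CPM in the others, and at 27.9 and 44.4 CPM in cycling T cells against 18.3 and 18.2 CPM. Hdac4 went the other way in T cells, with 18.8 and 15.6 CPM in cycling cells against 26.3 and 27.1 CPM. It rests on 29 and 19 UMIs in the cycling cells, and w/o butyrate the interval of the ratio covered equal levels. Hdac7 in cycling T cells w/o butyrate rested in part on 1 cell that held 28 of 166 UMIs. Its ratio was 0.51 w/o butyrate and 0.08 w/ butyrate.

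**Figure D4:**
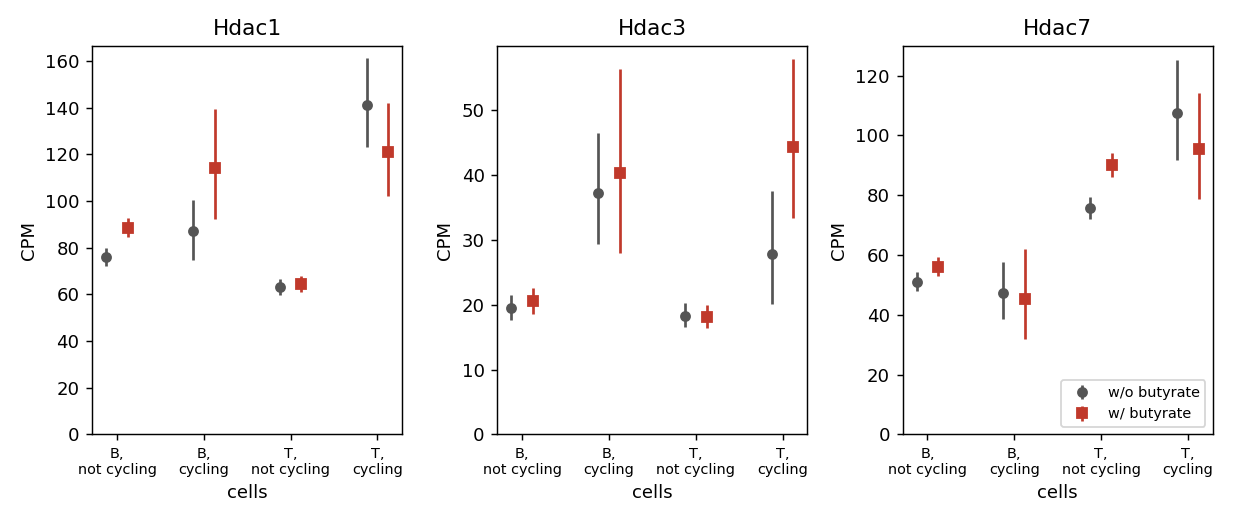
Level in CPM of Hdac1, Hdac3 and Hdac7 in cycling and not cycling B-lineage and T cells, w/o and w/ butyrate, with exact 95% counting intervals. Hdac1 in T cells is at 141 and 121 CPM in cycling cells and at 63.1 and 64.4 CPM in the others.

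Antibody-secreting and follicular helper cells, the cells nearest to the study's question, were few. Cells with at least 10 UMIs of Jchain, the joining chain of secreted antibodies, a UMI of Sdc1 or Tnfrsf17 and none of Cd3e are called plasma cells here. They numbered 37 and 10. They had 27.9 and 41.4 CPM of Hdac1, with log2 ratios of -1.50 and -1.12 to the other B-lineage cells. The sum of all 10 members was lower in them too, at 117 and 171 CPM against 233 and 253 CPM. Their median depths were 25805 and 31839 UMIs, and 21 and 6 of them were cycling. CPM here count immunoglobulin RNA, and levels scaled without it were not computed for these cells. Plasma cells held 28 and 15 UMIs of Hdac1, against 1726 and 1926 UMIs in the 4162 and 3912 other B-lineage cells. Captured Hdac1 UMIs per cell were thus more in plasma cells, which were also the deeper cells. The lower CPM was a smaller share of their UMIs and not fewer Hdac1 UMIs per cell. CD4+ T cells with UMIs of both Cxcr5 and Pdcd1, markers of T follicular helper (Tfh) cells, numbered 17 in each library. They had 144 and 146 CPM of Hdac1 from 21 and 31 UMIs, and 82.2 and 141 CPM of Hdac7 from 12 and 30 UMIs. The log2 ratio w/ over w/o butyrate in them was 0.02 [-0.82, 0.90] for Hdac1 and 0.78 [-0.22, 1.88] for Hdac7, intervals too wide to show a difference of the size found elsewhere. Of the 17 cells in each library, 4 and 6 were cycling. The regulatory T cell genes Il2ra, Ikzf2 and Ctla4 summed to 603 and 646 CPM in them, against 151 and 115 CPM in CD4+ T cells. Whether some of these cells were regulatory cells whose Foxp3 was not captured was not tested.

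Butyrate supplementation went with small differences in the members. With 10 CPM added, none of the members with 50 UMIs or more was past a log2 ratio of 0.5 in either direction. This covered 10 members in the B-lineage, 7 in CD4+ T cells, 9 in CD8+ T cells and 4 in Foxp3+ T cells. Hdac6 in the B-lineage, and Hdac6 and Hdac10 in CD8+ T cells, were too low w/o butyrate to pass downwards even with no UMI w/ butyrate. Their result in that direction was thus fixed and says nothing of a decrease. Of all genes, 0.0669% were higher and 0.621% lower in the B-lineage, 0.131% and 0.944% in CD4+ T cells, 0.0754% and 0.377% in CD8+ T cells, and 2.81% and 3.83% in Foxp3+ T cells. The members' median log2 ratio was 0.05 in the B-lineage, 0.04 in CD4+ T cells, -0.04 in CD8+ T cells and -0.07 in Foxp3+ T cells. Over all genes tested the medians were 0.03, 0.00, 0.01 and 0.00.

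Counting intervals separate smaller differences. Over 5 lineages, 6 of 37 values of members with 50 UMIs or more had an interval above 0 and 0 had one below 0. In the B-lineage these were 3 of 10 members, where 17.5% of all genes had an interval above 0 and 9.73% one below. Among genes with 1000 UMIs or more, 28% were above and 12% below. In CD8+ T cells it was 1 of 9 members, against 8.4% of genes above and 7.55% below, and in other T cells 2 of 7, against 6.82% and 6.49%. In CD4+ T cells (6.19% above, 7.81% below) and in Foxp3+ T cells (5.68% and 7.6%) it was no member. Such an interval compares these pooled libraries and not the conditions.

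**Figure D5:**
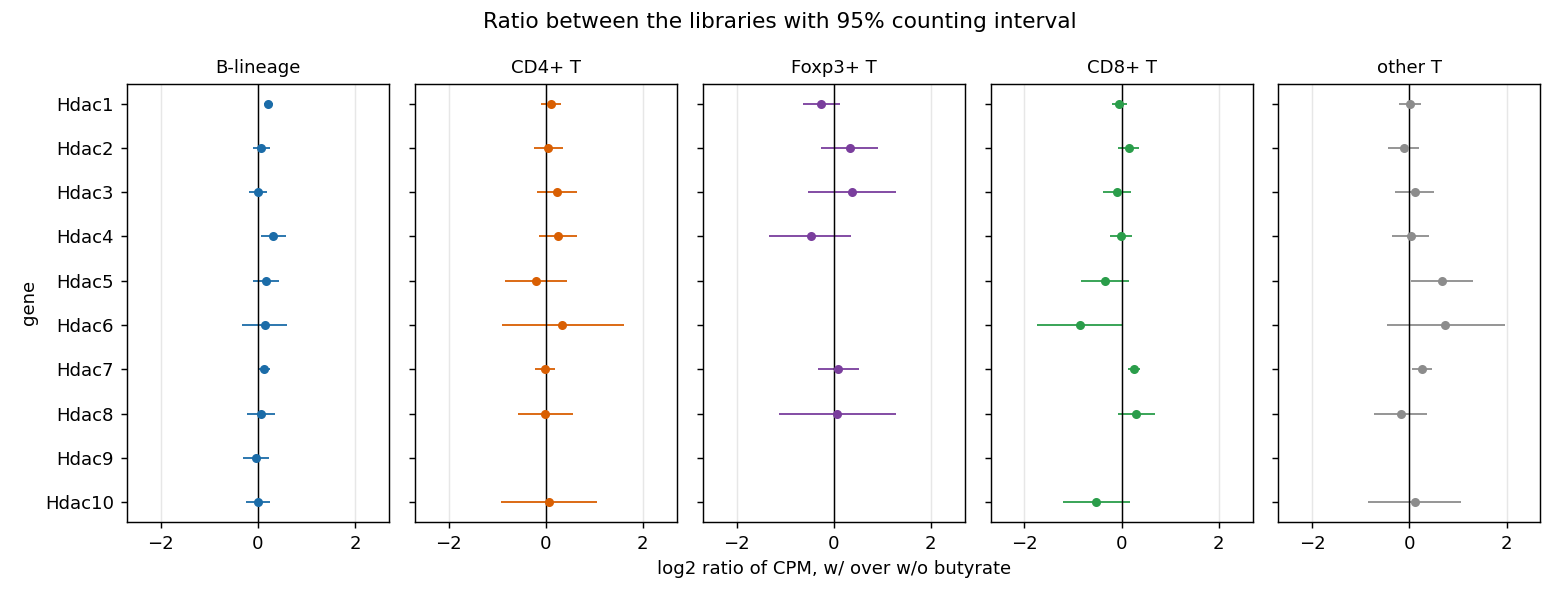
Log2 ratio of the level w/ butyrate to that w/o butyrate for each member with at least 20 UMIs in the lineage, with exact 95% counting intervals. Most values lie near 0. Intervals lie above 0 for Hdac1 (0.22), Hdac4 (0.32) and Hdac7 (0.14) in the B-lineage and for Hdac7 (0.26) in CD8+ T cells. They also do for Hdac5 (0.66) and Hdac7 (0.26) in other T cells.

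Hdac1 was higher w/ butyrate in the B-lineage, at 1941 UMIs and 89.4 CPM against 1754 UMIs and 76.8 CPM. The log2 ratio was 0.22 [0.12, 0.31], or 1.16-fold, and the thinned shares were 16.2% and 13.9% of cells. It was 0.22 [0.10, 0.34] among B-lineage cells with Ighd and Fcer2a, genes of mature follicular B cells. It was 0.22 without cycling cells, 0.19 without plasma cells and 0.21 without cells that carried interferon response UMIs. All T cells together had 67.3 CPM w/ butyrate and 68.5 CPM w/o butyrate, a log2 ratio of -0.02 [-0.13, 0.08]. The ratio was 0.11 [-0.10, 0.31] in CD4+ T cells and 0.01 [-0.21, 0.24] in other T cells. Both intervals held the B-lineage value of 0.22. It was -0.05 [-0.20, 0.11] in CD8+ and -0.25 [-0.63, 0.12] in Foxp3+ T cells. Without cycling cells it was 0.16 [-0.06, 0.39] in CD4+ and 0.35 [-0.23, 0.93] in Foxp3+ T cells.

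Hdac4 and Hdac7 were the other members with B-lineage intervals above 0. Hdac4 was at 12.4 CPM w/ butyrate from 269 UMIs and 9.95 CPM w/o butyrate from 227 UMIs, a log2 ratio of 0.32 [0.06, 0.58]. Hdac7 was at 55.7 and 50.6 CPM, a log2 ratio of 0.14 [0.02, 0.25]. In cells with Ighd and Fcer2a both intervals spanned 0, at 0.25 [-0.07, 0.57] and 0.07 [-0.07, 0.21]. The sum of all 10 members in the B-lineage was higher by 0.14 [0.09, 0.20], with 0.15 for class I, 0.14 for class IIa and 0.03 [-0.18, 0.25] for class IIb. That sum rests mostly on Hdac1 and Hdac7, which gave most of the UMIs.

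Hdac7 was higher w/ butyrate in CD8+ T cells, with 1241 UMIs and 101 CPM against 893 UMIs and 84.0 CPM. The log2 ratio was 0.26 [0.14, 0.39], or 1.20-fold. A UMI of Hdac7 was found in 19.6% of thinned CD8+ T cells against 14.9%, and in 52.0% against 43.2% at full depth. After thinning each cell to 2000 UMIs the log2 ratio of the sums was 0.48. Depth moved with it, since the median CD8+ T cell had 7808 UMIs w/ butyrate and 6745 w/o butyrate.

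The same direction held in parts of the CD8+ T cells. In cells with Ccr7 and no Cxcr3 the log2 ratio of Hdac7 was 0.28 [0.12, 0.44], and in cells with Cxcr3 it was 0.15 [-0.11, 0.41]. Other T cells had 84.8 CPM against 70.9 CPM, a log2 ratio of 0.26 [0.05, 0.46]. CD4+ T cells had 71.3 and 72.1 CPM, a log2 ratio of -0.02 [-0.23, 0.20]. Whether CD8+ and CD4+ T cells differ in this ratio could not be tested with 1 library per condition.

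Interferon response genes moved with the libraries as well. The sum of Isg15, Ifit1, Ifit3 and Irf7 was lower w/ butyrate in all 5 lineages. It was at 174 against 400.1 CPM in CD8+ T cells, 153 against 384 CPM in CD4+ T cells and 66.6 against 111 CPM in the B-lineage. In Foxp3+ T cells the sum was at 159 against 206 CPM. There Ifit1, at 35.6 against 22.7 CPM, and Ifit3, at 31.2 against 28.2 CPM, were higher w/ butyrate. Without the cells that carried at least 2 UMIs of the genes in that sum, Hdac7 in CD8+ T cells had a log2 ratio of 0.37 [0.21, 0.53]. Hdac7 in other T cells then had one of 0.18 [-0.06, 0.42], with an interval that spanned 0. At these levels the cut may take out many T cells, and unequal parts of the libraries. The number of cells left is not given here.

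In the 5 lineages the remaining members gave wide intervals or values near 0. Hdac5 in other T cells was at 11.1 CPM w/ butyrate and 6.98 CPM w/o butyrate, from 53 and 38 UMIs, a log2 ratio of 0.66 [0.04, 1.31], while over all T cells it was at 7.24 and 7.23 CPM. Hdac2 and Hdac3 had intervals that spanned 0 in all 5 lineages. Hdac8 did too, with its largest ratio in CD8+ T cells, 0.31 [-0.07, 0.69]. Among the finer groups, Hdac2 was at 0.27 [0.01, 0.54] in CD8+ T cells with Ccr7 and no Cxcr3. Hdac3 was at 0.67 [0.07, 1.28] in cycling T cells. In the other finer groups with a ratio, the intervals of both genes spanned 0. Hdac9 in the B-lineage was at 10.7 and 11.0 CPM, a log2 ratio of -0.04 [-0.30, 0.23], and Hdac10 there was at 11.9 and 11.9 CPM, 0.00 [-0.25, 0.25]. The few Hdac9 UMIs of all T cells, 6 w/ butyrate and 18 w/o butyrate, gave a log2 ratio of -1.64 [-3.26, -0.25], and one of -1.41 [-3.06, 0.04] without cycling cells.

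The class IIb genes went the other way in CD8+ T cells. Hdac6 had 20 UMIs w/ butyrate and 31 w/o butyrate, 1.62 and 2.92 CPM, and Hdac10 34 and 42 UMIs, 2.76 and 3.95 CPM. Each interval spanned 0, at -0.85 [-1.73, 0.01] for Hdac6 and -0.52 [-1.22, 0.17] for Hdac10. Their sum was lower by 0.65 on the log2 scale, with an interval of [-1.18, -0.12], and rests on 54 and 73 UMIs. Over all T cells the sum of class IIb was at -0.19 [-0.54, 0.16]. The class IIa sum in CD8+ T cells was at 0.17 [0.06, 0.27], with Hdac7 as its main part.

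Genes that work with the HDACs or answer to their inhibition were read from lists of corepressor subunits, acetyltransferases, other deacetylases, class IIa partners and response genes. Of the 73 listed genes, 0 were past 0.5 upwards and 1 downwards among 72 tested in the B-lineage, 0 and 1 among 67 in CD4+ T cells, 0 and 0 among 68 in CD8+ T cells, and 2 and 0 among 54 in Foxp3+ T cells. The shares of all genes past 0.5 given above apply here too. Low listed genes, such as Hdac11 in the B-lineage, could likewise not pass downwards. The medians of the listed genes were 0.04, 0.01, -0.01 and 0.01 in the same order, beside 0.03, 0.00, 0.01 and 0.00 over all genes.

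The corepressor lists held none of the moved genes in the B-lineage, CD4+ or CD8+ T cells, which covers 11 tested genes of NuRD, 11 of Sin3, 3 of CoREST, 5 of NCoR/SMRT and 2 of MiDAC. In Foxp3+ T cells Dnttip1, the scaffold subunit of the MiDAC complex of Hdac1 and Hdac2, was at 53.5 CPM w/ butyrate and 33.7 CPM w/o butyrate from 60 and 43 UMIs. Mef2a, a MEF2 factor that class IIa HDACs bind, was at 37.4 and 18.0 CPM there from 42 and 23 UMIs. Foxp3+ levels rest in large part on cycling cells, and the levels of Dnttip1 and Mef2a without those cells are not given here. The 10 acetyltransferases, the enzymes that oppose HDACs, were all tested in the B-lineage, CD4+ and CD8+ T cells, and 7 of them in Foxp3+ T cells. None of those tested was past 0.5. Hdac11, the class IV enzyme, was at 2.16 CPM w/ butyrate and 3.02 CPM w/o butyrate in the B-lineage, a log2 ratio of -0.48 [-1.05, 0.07]. It was 4.24-fold and 5.61-fold higher in the B-lineage than in all T cells w/o and w/ butyrate.

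H1f0, a linker histone whose gene is classically induced by butyrate and other HDAC inhibitors, was lower w/ butyrate in the B-lineage, at 5.94 CPM against 15.9 CPM, a log2 ratio of -1.42 [-1.73, -1.13]. Plasma cells, 10 w/ butyrate and 37 w/o butyrate, held 46 of its 129 and 270 of its 364 UMIs, with 29 and 68 UMIs in 1 cell. Without plasma cells the levels were 3.89 and 4.31 CPM and the log2 ratio was -0.15 [-0.59, 0.29]. In CD8+ T cells H1f0 was at 4.63 CPM w/ butyrate and 2.54 CPM w/o butyrate, from 57 and 27 UMIs, a log2 ratio of 0.86 [0.18, 1.58]. Without cycling cells that ratio was 0.34 [-0.43, 1.13], and without interferon-carrying cells it was -0.0175 [-0.87, 0.87]. In CD4+ T cells it was at 24.1 and 23.4 CPM and in Foxp3+ T cells at 71.3 and 74.5 CPM.

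The listed gene that was lower in CD4+ T cells was Cdkn1a, the cell cycle inhibitor p21 and a gene that HDAC inhibitors classically induce, named here after its values were seen. It had 7 UMIs w/ butyrate in 4 cells and 47 w/o butyrate in 11 cells, 1.37 and 9.26 CPM, with up to 4 and 16 UMIs in 1 cell. Without cycling cells it had 1 and 47 UMIs, under the minimum of 50 for the call, and without interferon-carrying cells no listed gene was past the call. In the B-lineage Cdkn1a went the other way, with 84 UMIs w/ butyrate and 62 w/o butyrate, a log2 ratio of 0.51 [0.02, 1.01].

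Each member was also set against all genes with 20 CPM or more in 1 lineage, by the Pearson correlation of log2(CPM + 10) over the 10 points that 5 lineages and 2 libraries gave. The points of a library share their depth and their pool of mice, so the values are descriptions over 6316 genes. All lineages but the B-lineage were T cells, so a high value may largely restate the difference between B and T cells given above. The genes nearest to Hdac9 were Pold4, Plekha2 and Hes1, each at 0.99, and those nearest to Hdac10 were Zfp608, Blvrb and Dnase2a, each at 0.99. Hdac7 was nearest to Zyx, Erap1 and Nbdy, at 0.96, 0.95 and 0.95, and Hdac4 to Gm17018, Snrpd3 and Snhg20, at 0.97, 0.97 and 0.96. Hdac1 was nearest to Polr2e, Fdps and Pom121, at 0.99, 0.98 and 0.98. Between members, Hdac9 and Hdac10 were at 0.98, Hdac4 and Hdac7 at 0.87, and Hdac4 and Hdac10 at -0.94.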

How the data were processed

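The 2 libraries were made with a droplet 3′ kit from MedLN cells, and the authors deposited filtered matrices of UMI counts per gene and cell, with no normalization. The submitters' processing notes name Cell Ranger 6.0.1 and mm10. The counter's strand setting is not given in the sources used here. The deposited counts were filtered at 10% mitochondrial UMIs at most and 200 genes at least, which took out 186 and 327 cells w/o and w/ butyrate, and then by the top Scrublet scores at 0.8% per 1000 cells (735 and 615), as the study's methods remove dead cells and doublets. Scrublet's own threshold marked 377 and 233. The 59176459 and 58381292 deposited UMIs became 52474859 and 52035206.

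A cell was B-lineage with at least 1 UMI of Cd79a and none of Cd3e, T with the reverse, and myeloid with at least 3 UMIs of Lyz2 and neither. Cells with both Cd79a and Cd3e (454 and 458) or with none of these markers (571 and 412) were left out. UMIs were summed per lineage and scaled to CPM. Intervals were exact Poisson for levels, exact Clopper-Pearson for shares and exact conditional binomial for ratios, at 95%, and cover counting error only. Thinning to 2000 UMIs left out 101 and 57 shallower cells. With 1 library per condition no test was run. A ratio counted as past the call at 0.5 on log2(CPM + 10), for genes whose 2 sums held 50 UMIs or more together, in lineages with at least 100 cells per library.

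All 10 members were named in every lineage. Listed genes were named if past 0.5 at 20 CPM or more, with Hdac11 and H1f0 always named, and the 3 genes most like each member were named from the correlation. A further interferon response gene is not reported here. The members and lists were chosen with earlier results of these data known. Scripts ran in Python 3.11.15 with scanpy 1.11.5, numpy 2.4.6, scipy 1.17.1 and pandas 2.3.3, and were tested on simulated counts. Alternatives covered the filters, doublet and marker rules, thinning, scaling, pseudocount and thresholds. Gene positions are from the GRCm38 annotation and promoter windows from RefSeq on GRCm38.p6.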

Additional observations from a re-analysis of the deposited data

Results flagged for a closer look

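H1f0 had a log2 ratio w/ over w/o butyrate of 0.86 in CD8+ T cells and of -1.42 in the B-lineage, with counting intervals on opposite sides of 0. The difference between the lineages was not tested, since each condition was 1 library. The ratio was -0.15 in the B-lineage without plasma cells, and in CD8+ T cells it was 0.34 without cycling cells and -0.0175 without interferon-carrying cells. The number of cells left by that last cut is not given here.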

How the results depend on the processing

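The results were recomputed under alternatives that gave 1500 values in all. Of these, 1360 stayed inside the counting interval of the reported value or, for counts of genes, near the reported count. A further 139 moved and 1 reversed. Ratios whose reported interval held both signs could change sign without being counted as reversed. No paired analysis was possible because each condition was 1 library and the labels carry no replicate numbers, and for the same reason no replicate could be left out. Leaving out cycling, plasma or interferon-carrying cells was chosen after seeing the data. Over 13 alternatives each, the log2 ratio w/ butyrate ranged from 0.18 to 0.22 for Hdac1 in the B-lineage, 0.23 to 0.41 for Hdac4 and 0.10 to 0.28 for Hdac7 there, 0.24 to 0.48 for Hdac7 in CD8+ T cells, and 0.18 to 0.39 for Hdac7 and 0.44 to 1.25 for Hdac5 in other T cells. The B over T ratio of Hdac9 ranged from 3.51 to 4.29 w/o and 4.80 to 5.51 w/ butyrate, and that of Hdac4 from -1.46 to -1.28 and -1.25 to -1.02. The summed members in CD4+ T cells moved from 0.07 to 0.20 after thinning. Of 85 shares that moved, 39 were at full depth and 34 after thinning to 3000 UMIs.

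The counts of genes past the call moved most. At the reported settings 72, 90, 42 and 340 genes passed in the B-lineage, CD4+, CD8+ and Foxp3+ T cells, of which 1, 1, 0 and 2 were listed genes and 0 were members. With 1 CPM added these became 394, 471, 293 and 601 genes, with 3 listed genes and 1 member in CD8+ T cells. With at least 200 UMIs, 55 genes passed in CD4+ and 61 in Foxp3+ T cells, with 0 listed genes in each. With no minimum, 930 genes and 4 listed genes passed in Foxp3+ T cells. With scaling that left out ribosomal, mitochondrial and immunoglobulin genes, 112, 159 and 65 genes passed in the B-lineage, CD4+ and CD8+ T cells, with 1 listed gene in CD8+ T cells. At a call of 1 they were 9, 9, 8 and 19, with 0 listed genes in the B-lineage, CD4+ and Foxp3+ T cells. Without cycling cells 40 genes passed in the B-lineage, and 0 listed genes there and in CD4+ T cells. Without plasma cells 0 listed genes passed in the B-lineage. Without interferon-carrying cells 0 listed genes passed in CD4+ T cells, and the ratio of H1f0 in CD8+ T cells reversed to -0.0175, with an interval that spanned 0. The cause of these shifts was not tested. Depth limits Hdac6 and the T cell values of Hdac9, which rest on few UMIs.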
